A study of Striga hermonthica with 6 samples.

Results

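The loci described here are the small RNA loci of *Striga hermonthica* that are not marked as *MIRNA* and that lie on contigs carrying 5 or fewer loci in the count tables. There were 1788 such loci, called members here, on 1463 contigs, out of 25056 small RNA loci on 1581 contigs. Members were therefore 7.14% of all loci, while their contigs were 92.5% of the contigs with a locus. The rule used position and the *MIRNA* mark only, and no count per library entered it. The loci and the mark were themselves called from reads of this series, so the choice is not independent of the reads. On the same contigs, 2 *MIRNA* loci were left out. The loci used for comparison, called other loci, are the 23200 loci without the mark on the 118 contigs with more loci.

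*S. hermonthica* is a parasitic plant that attaches to cereal roots through an organ called the haustorium. Small RNA was sequenced from 6 libraries of the Kibos ecotype, all from plants raised on rice of the variety KitaakeX for 45 days at 30 °C with 16 hours of light. In the labels, 2 libraries are haustorium without a stage (replicates 1 and 3), 2 are haustorium at stage 6 (replicates 1 and 2) and 2 are leaf at stage 6 (replicates 1 and 2), and no source defines the stage. Whether replicates were separate plants is not stated, and p-values reflect no more than the spread among these libraries, which may be technical.

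Most plant small RNAs are cut from double-stranded RNA by DICER-LIKE enzymes. *MIRNA* loci give rise to hairpin precursors, whereas small interfering RNAs arise from longer double-stranded RNA, often over repeats, where they are known to guide DNA methylation. A small RNA locus is a stretch of the genome where aligned small RNA reads are dense, and a contig is a piece of assembled sequence. A locus that begins at the first base of a contig cannot be followed further in that direction in the assembly.

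The counted reads of a library ranged from 3031863 to 8381235, and TMM factors, which scale library sizes in the tests, from 0.608 to 1.77 (that of stage 6 haustorium replicate 2). Leaf replicate 1 had the next highest factor, 1.75, and the other 4 libraries stayed at or below 0.981. The loci carry no gene names, so the tissue labels could not be checked against marker genes. In tissue samples such as these, fewer cells of a type and less RNA per cell cannot be told apart.

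Most members were the only locus of their contig. Contigs with 1 locus held 1227 members, contigs with 2 loci held 349, with 3 loci 110, with 4 loci 72 and with 5 loci 30. Just inside the limit, the 30 loci on 6 contigs with 5 loci held between 0.0174% and 0.0622% of the counted reads of a library. Just outside it, the 36 loci on 6 contigs with 6 loci held between 0.0649% and 0.114%. The end of the last locus, which is a lower limit for the length of a contig, had a median of 1717 nt over the contigs of members and lay before position 3000 on 889 of them (60.8%).

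Members were about as long as other loci. Their median length was 420 nt, with quartiles of 414 and 439 nt and a range from 218 to 3743 nt, and the median of other loci was 422 nt. Lengths from 410 nt to just under 430 nt were found at 47.7% of members and 54.3% of other loci. Members were under 410 nt in 19.9% of cases, against 14.2% of other loci, and reached 800 nt or more in 2.74% (49 members), against 3.82%. The 3 longest members were Cluster_22664 (3743 nt), Cluster_22192 (2675 nt) and Cluster_11977 (2665 nt), and the 3 shortest were Cluster_2193 (218 nt), Cluster_5925 (223 nt) and Cluster_23660 (226 nt).

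A start at position 1 of the contig was found at 149 members (8.33%) and at 1 of the other 23200 loci, Cluster_8944. The number of contigs differs as well: 149 of the 1463 contigs of members had a locus at position 1, against 1 of the 118 contigs with more loci. Within the first 200 positions, 279 members started. Members at position 1 were shorter in the main, with a median of 358 nt against 421 nt for the rest of the members, and 105 of the 149 were under 410 nt. At the other end of the scale, 15 of them were 800 nt or longer. These 149 loci held 6.65% and 5.18% of the counted reads in haustorium replicates 1 and 3, 3.94% and 3.84% in the stage 6 haustorium libraries, and 4.99% and 3.95% in those of leaf. The libraries without a stage were thus the highest, with leaf replicate 1 close below them. Cluster_11977, 1 of these 149 loci, was also highest in the libraries without a stage, at 24057 and 24012 reads per 1000000 counted reads. The remaining libraries had 11527 to 16354 at Cluster_11977. With Cluster_11977 taken off these shares, haustorium replicate 3 falls below leaf replicate 1. Both libraries without a stage were thus not the highest over the other loci that start at position 1. The 15 long loci alone held between 2.03% and 4.02% of a library.

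**Figure D1:**
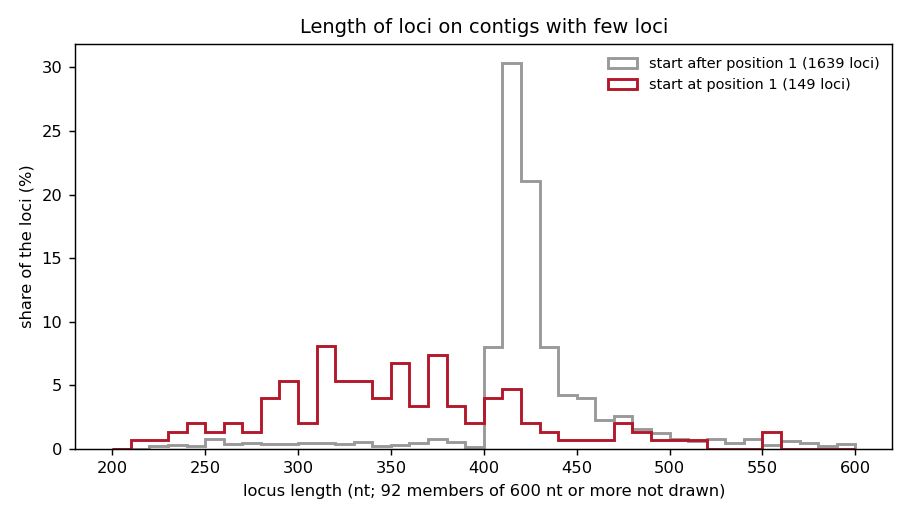
Length of members, in bins of 10 nt on the x axis, as a share of the loci of each line on the y axis; the red line stands for the 149 members that start at position 1 and the grey line for the 1639 that start later, and 92 members of 600 nt or more are not drawn. The grey line peaks just above 410 nt, whereas the red line is spread below 410 nt, where 105 of the 149 loci lie.

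Most contigs of members carried no annotated gene. Of the 1788 members, 1370 (76.6%) lie on a contig without an annotated gene, against 0.0905% of other loci. An overlap with a gene was found at 64 members (3.58%) against 12.0% of other loci. Among the 418 members on contigs with an annotated gene the share was 15.3%, so the lower figure rests on the contigs without one. The 354 members that lie between genes on contigs with a gene had a median distance to the closest gene of 13802 nt, against 3152 nt for other loci. The annotation gives locus tags without gene names, so no function is given for these genes.

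Members held between 7.89% and 12.3% of the counted reads of a library. The share was 12.3% in haustorium replicate 1 and 10.8% in replicate 3. At stage 6 it was 8.78% and 9.49% in replicates 1 and 2 of haustorium, and 11.7% and 7.89% in leaf replicates 1 and 2. Haustorium without a stage had a mean of 11.6% ± 1.04 (SD, n = 2), stage 6 haustorium one of 9.14% ± 0.499 (SD, n = 2) and leaf one of 9.78% ± 2.68 (SD, n = 2). Both leaf values lie outside the range of stage 6 haustorium, 1 above and 1 below, so leaf overlaps both haustorium groups. The 95% Wilson interval of a share reached at most 0.0319 percentage points to either side, which covers counting error only and is far below the difference between replicates. With 2 libraries against 4, an exact rank-sum test cannot give a two-sided p below 0.133, and no exact test was run.

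A few loci made up most of this share. The 10 most abundant members held between 54.7% and 67.0% of the member reads of a library, and the most abundant one between 12.6% and 22.2%. Without these 10, the share of the remaining 1778 members was 5.29% and 3.39% in leaf, 3.35% and 3.96% in stage 6 haustorium, and 4.05% and 3.58% in the haustorium libraries that have no stage. The order of the libraries changed with that, and leaf replicate 1 became the highest. Over all members, 13 had a mean of 1000 CPM or more (counts per 1000000 counted reads, averaged over the 3 group means), 61 had 100 CPM or more, and the median was 6.96 CPM against 7.92 CPM for other loci.

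**Figure D2:**
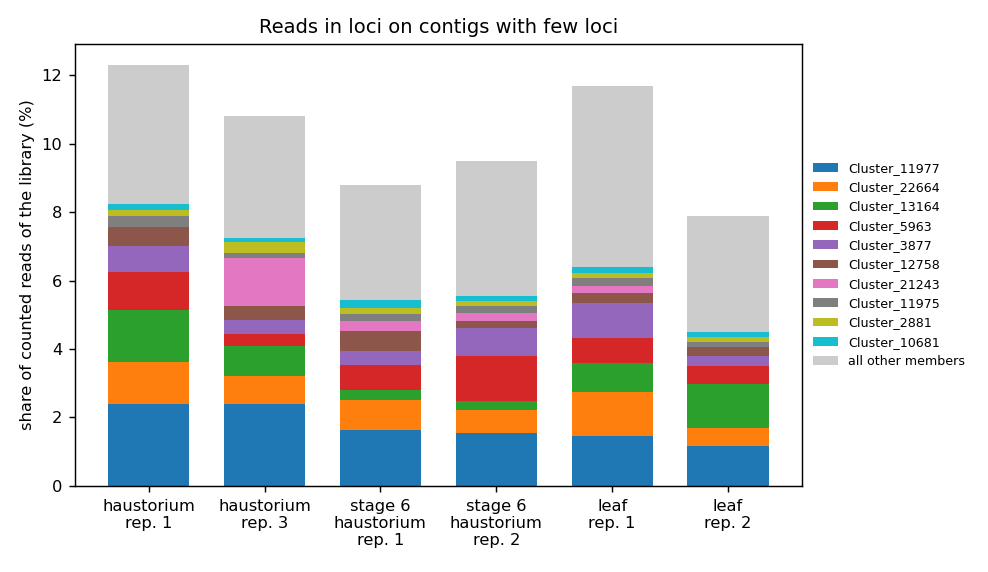
Share of the counted reads of each library (y axis, percent) in members, for the 6 libraries on the x axis; coloured blocks are the 10 most abundant members and the grey block is the sum of the other members. The bars range from 7.89% in leaf replicate 2 to 12.3% in haustorium replicate 1, and the coloured blocks are more than the grey one in every library.

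The most abundant member was Cluster_11977, which covers positions 1 to 2665 of contig CACSLK010025212.1 in the SHERM assembly and is the only locus there. It had 24057 and 24012 CPM in haustorium replicates 1 and 3, 16354 and 15422 CPM in the stage 6 haustorium libraries, and 14682 and 11527 CPM in those of leaf. In CPM, both leaf libraries were below all 4 haustorium libraries, and the 3 groups did not overlap. This did not hold after TMM scaling. Divided by its factor of 0.649, leaf replicate 2 was above stage 6 haustorium replicate 2, whose factor was 1.77. The log2 fold change of leaf against both haustorium groups was -0.70 ± 1.13 (SE), which edgeR did not call (adjusted p 1.00). By the same measure of separation, 37 members (2.07%) had both leaf libraries below all haustorium libraries in CPM, against 2.00% of all loci, and 30 members (1.68%) had both above, against 1.63%.

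Cluster_22664, the longest member, lies on contig CACSLK010032849.1 from 10240 to 13982. Its level was 11992 and 8113 CPM in haustorium replicates 1 and 3, 8620 and 6806 CPM in stage 6 haustorium, and 12610 and 5490 CPM in leaf replicates 1 and 2. The leaf libraries enclosed all the others.

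Cluster_13164 was the densest of the 10 per length, at 1528 CPM per 100 nt against 663 CPM per 100 nt for Cluster_11977. It covers positions 1 to 556 of contig CACSLK010027647.1 and overlaps the gene SHERM_22696. It had 15356 and 8808 CPM in haustorium replicates 1 and 3, 8525 and 12881 CPM in leaf replicates 1 and 2, and 2903 and 2485 CPM in stage 6 haustorium. Both stage 6 haustorium libraries were thus below the other 4, with a group mean of 2694 ± 295 CPM (SD, n = 2) where haustorium without a stage had 12082 ± 4630 CPM (SD, n = 2). edgeR did not call it in leaf against haustorium, where its log2 fold change was 1.03 ± 1.06 (SE, adjusted p 1.00).

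Cluster_5963 lies from 500 to 3032 on contig CACSLK010013586.1, 1 of 2 members there. It ranged from 3333 CPM in haustorium replicate 3 to 13328 CPM in stage 6 haustorium replicate 2, with both leaf libraries (7365 and 5273 CPM) inside that range. Cluster_5962, its neighbour from 1 to 477, was far lower, at 70.5 to 117 CPM in haustorium without a stage, 37.3 to 91.3 CPM at stage 6, and 93.1 and 180 CPM in leaf. Per 100 nt, the neighbours had means of 314 and 20.6 CPM.

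Cluster_3877 covers positions 1 to 2101 of contig CACSLK010010722.1. Its leaf libraries were both the highest and the lowest of the 6, at 10301 and 2750 CPM, and the haustorium libraries lay between 4285 and 7989 CPM. The other member of this contig, Cluster_3878, from 3003 to 3483, was at 93.0 CPM in leaf replicate 1 and 1.20 CPM in leaf replicate 2, and between 4.29 and 32.8 CPM in haustorium. The leaf replicates thus stood in the same order at both loci. That order was common, as the median log2 difference of leaf replicate 1 minus 2 was 1.89 over all members.

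Cluster_12758 covers positions 1 to 699 of contig CACSLK010027619.1 and overlaps the gene SHERM_22671. It had 5451 and 4075 CPM in haustorium replicates 1 and 3, 5733 and 2098 CPM in stage 6 haustorium, and 2933 and 2557 CPM in leaf. Leaf lay within the range of stage 6 haustorium and below haustorium without a stage.

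Cluster_21243 was the least even of the abundant members. It lies on contig CACSLK010030927.1 from 16050 to 16519, 1 of 4 members there. It had 13941 CPM in haustorium replicate 3 but 3 reads (0.358 CPM) in replicate 1 of the same group, and 2119 CPM in leaf replicate 1 but no read in leaf replicate 2, where a count of 0 allows up to 0.360 CPM. The stage 6 haustorium libraries were alike, at 2900 and 2494 CPM. The standard deviation of its log2(CPM + 0.5) over the 6 libraries was 6.54, the largest among the 565 members with a mean of 10 CPM or more. The other 3 members of the contig spanned far narrower ranges: Cluster_21241 from 1.18 to 21.5 CPM, Cluster_21242 from 2.40 to 68.0 CPM, and Cluster_21244 from 0.119 to 9.39 CPM. Cluster_21242 and Cluster_21244 had the same order of replicates as Cluster_21243 in haustorium without a stage and in leaf. At Cluster_21244 the order in haustorium without a stage rested on 1 read in replicate 1 and 3 reads in replicate 3. Cluster_21241 had it in leaf but not in haustorium without a stage.

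The last 3 of the 10 were more even. Cluster_11975 (contig CACSLK010025196.1, 1 to 1644) had 1375 to 3358 CPM in haustorium and 2309 and 1656 CPM in leaf. Cluster_2881 (contig CACSLK010006556.1, 1 to 1821) had 3167 CPM in haustorium replicate 3 and 1220 to 1694 CPM in the other 5 libraries. Cluster_10681 (contig CACSLK010024473.1, 136 to 672) had 1195 to 2415 CPM in haustorium and 1558 and 1614 CPM in leaf. Of the 10 most abundant members, 6 thus start at position 1, and edgeR called none of the 10 in leaf against haustorium.

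**Figure D3:**
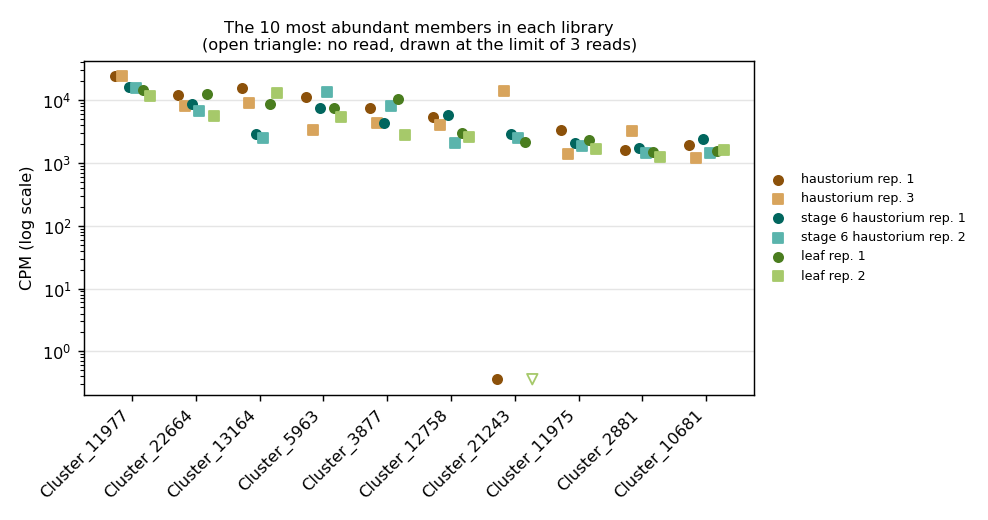
CPM (y axis, log scale) of the 10 most abundant members on the x axis, with 1 point per library; circles and squares are the libraries of a group, and an open triangle marks a library without a read, drawn at the limit of 3 reads. Cluster_11977 lies between 11527 CPM (leaf replicate 2) and 24057 CPM (haustorium replicate 1), and Cluster_21243 spans 0.358 to 13941 CPM within haustorium without a stage.

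The third gene overlap by abundance was that of Cluster_3270 with SHERM_01043, on contig CACSLK010008657.1 from 780 to 1230. It had 129 and 240 CPM in haustorium replicates 1 and 3, 141 and 0.144 CPM in stage 6 haustorium, and 12.1 and 247 CPM in leaf. Replicates of stage 6 haustorium and of leaf were far apart.

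Median levels differed more between the leaf replicates than between the group means. The median level of members was 6.09 and 3.24 CPM in haustorium replicates 1 and 3, 2.64 and 5.61 CPM in the libraries of stage 6 haustorium, and 14.2 and 2.40 CPM in leaf replicates 1 and 2. The leaf libraries thus held the highest and the lowest median. Other loci had medians of 6.68, 3.83, 4.95, 12.5, 12.7 CPM in the same order of libraries up to leaf replicate 1, and were lower again in leaf replicate 2. The median of members was 1.12 times that of other loci in leaf replicate 1 and between 0.448 and 0.911 times in the other 5 libraries, lowest in stage 6 haustorium replicate 2. Per 100 nt the ratios ranged from 0.459 to 1.19.

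The library with the highest CPM was leaf replicate 1 at 865 members (48.4%), against 37.9% of other loci. Stage 6 haustorium replicate 2 was the highest at 19.9% of members against 39.5% of other loci. Leaf replicate 1 and stage 6 haustorium replicate 2 are the libraries with the high TMM factors, and after scaling by these factors leaf replicate 1 was the highest at 33.2% of members against 19.6% of other loci, and stage 6 haustorium replicate 2 at 9.62% against 17.0%. A single library held 80% or more of the summed CPM at 196 of the 1788 members, against 4.39% of other loci, and at 99 of the 196 that library was leaf replicate 1.

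**Figure D4:**
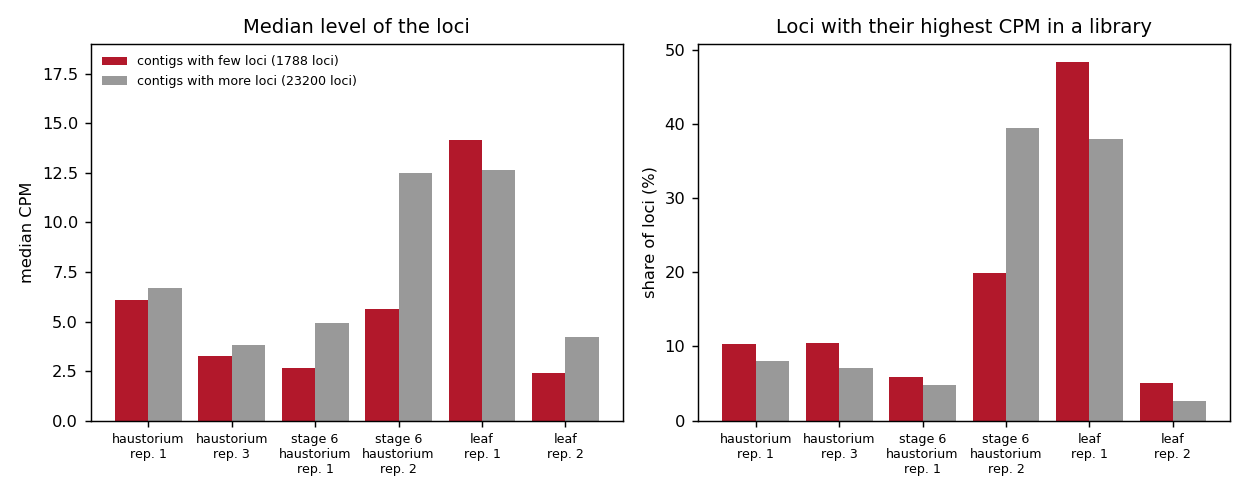
Left, median CPM of the loci (y axis) in the 6 libraries (x axis); right, share of the loci (y axis, percent) with their highest CPM in that library; red bars are the 1788 members and grey bars the 23200 other loci. In stage 6 haustorium replicate 2 the red bars reach less than the grey ones (5.61 against 12.5 CPM, and 19.9% against 39.5%), and in leaf replicate 1 more (14.2 against 12.7 CPM, and 48.4% against 37.9%).

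In each group, a 10-fold difference between replicates was found at a larger share of members than of other loci. Leaf replicate 1 exceeded leaf replicate 2 at least 10-fold on the CPM + 0.5 scale at 574 members (32.1%), against 3025 of the 23200 other loci, and the reverse was found at 5.93% against 3.45%. After TMM scaling, the first of these shares was 18.3% against 7.31%. A 10-fold difference in either direction between replicates was found at 13.7% of members in haustorium without a stage (other loci 11.4%) and at 22.2% in stage 6 haustorium (17.6%). The median of the signed log2 difference between replicates gives a shift common to the loci rather than their spread. In CPM it was 0.57 at members against 0.65 at other loci in haustorium without a stage (replicate 1 minus 3). It was -0.58 against -1.14 in stage 6 haustorium and 1.89 against 1.36 in leaf (replicate 1 minus 2). After TMM scaling these medians were 0.012 against 0.062, 0.15 against -0.15, and 0.64 against 0.048. By contig extent, a division chosen after values were seen, leaf replicate 1 was 10-fold higher in CPM at 36.5% of the 940 members whose contig had its last locus end before position 3000, and at 23.2% of the 495 where it ended at 20000 or later. After TMM scaling these shares were 19.1% and 15.8%, and a 10-fold difference in either direction was then less frequent on the contigs of small extent (25.7% against 30.3%). Across loci, Spearman's rho between libraries had a median of 0.295 over the 3 pairs within a group and 0.334 over the 12 pairs between groups at members, and of 0.341 and 0.373 at other loci. Between the leaf replicates rho was 0.120 at members and 0.266 at other loci, and between the replicates of haustorium without a stage 0.434 and 0.358. At members it was highest, at 0.508, between stage 6 haustorium replicate 1 and leaf replicate 2. These correlations are across loci, which are not independent, and are given as a description.

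Detection was less complete than at other loci. At least 10 reads in every library were found at 419 members (23.4%) against 41.7% of other loci, and no read in 1 or more libraries at 722 members (40.4%) against 27.1%. The share of members without a read ranged from 6.82% in haustorium replicate 1 to 16.8% in stage 6 haustorium replicate 1, the library with the fewest reads. Of the members, 123 (6.88%) reached 10 reads in 1 or more haustorium libraries but in no leaf library, against 3.99% of all loci. The other way round it was 72 (4.03%), against 1.77%, and these counts are not on equal terms with 4 libraries against 2. At 113 members (6.32%), a single library had 10 reads or more, against 2.53% of all loci.

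The most even members were found among moderately abundant ones. Cluster_10570 (1193 nt) stayed between 67.0 and 84.1 CPM in all 6 libraries, with an SD of 0.127 on the log2(CPM + 0.5) scale. Cluster_22479 ranged from 22.7 to 32.0 CPM and Cluster_22719 from 20.4 to 32.7 CPM. Over the 565 members with a mean of 10 CPM or more, the median SD was 1.59, against 1.12 over 8187 other loci. At the other extreme beside Cluster_21243 were Cluster_868 and Cluster_2957. Cluster_868 had 132, 410 and 146 CPM in haustorium replicate 1, stage 6 haustorium replicate 1 and leaf replicate 2, and 0 to 1.09 CPM in the other 3 libraries. Each group thus had a high and a low library. Cluster_2957 had 185 and 12.4 CPM in haustorium without a stage, 0.330 and 0.144 CPM in stage 6 haustorium, and 56.1 and 554 CPM in leaf.

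The 3 shortest members were near the detection limit in several libraries. Cluster_2193, which covers positions 1 to 218 of its contig, had 8.59 CPM in haustorium replicate 1, 20 reads in stage 6 haustorium replicate 1, 5.52 CPM in leaf replicate 2, and at most 3 reads in the other 3 libraries. Cluster_5925 had 8.85 and 4.08 CPM in leaf, 7.77 CPM in stage 6 haustorium replicate 2 and at most 1 read elsewhere. Cluster_23660 had 15.8 CPM in leaf replicate 1 and 0.144 to 3.83 CPM in the other 5 libraries. Among the longest, Cluster_22192 was the third in abundance, with 450 and 244 CPM in haustorium without a stage, 398 and 1322 CPM in stage 6 haustorium, and 359 and 887 CPM in leaf.

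Levels were compared between tissues to ask which small RNA loci differ between the organ of attachment and the leaf. In leaf against the mean of both haustorium groups, edgeR called 0 of the 1672 members that passed the filter on low counts, at an adjusted p of 0.05, and 0 of all 24421 loci tested (0%). At an unadjusted p under 0.05, 48 members (2.87%) were higher in leaf and 27 (1.61%) lower, against 2.11% and 1.15% of all loci tested. DESeq2, which tests each locus under another model of the spread, called 6 members higher in leaf (0.391% of all loci tested were) and 6 lower (0.419%). The median log2 fold change of members was 0.43, against 0.12 over all loci tested. Without leaf replicate 1 the median of members was -0.38, against -0.057 over all loci, so the direction of the median rested on that library.

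In leaf against stage 6 haustorium, edgeR again called 0 members and 0 loci (0%). At an unadjusted p under 0.05, 41 members (2.45%) were higher in leaf and 18 (1.08%) lower, against 1.20% and 0.798% of all loci tested. DESeq2 called 9 members higher and 9 lower, where 0.224% and 0.240% of all loci tested were called. The median log2 fold change was 0.59, against 0.049 over all loci, and without leaf replicate 1 it was -0.14, against -0.11.

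In stage 6 haustorium against haustorium without a stage, edgeR called 0 members and 0 loci (0%). At an unadjusted p under 0.05, 39 members (2.33%) were higher at stage 6, against 2.33% of all loci tested, and 67 (4.01%) lower, against 2.06%. DESeq2 called 18 members higher and 20 lower, against 0.770% and 0.778% of all loci tested. The median log2 fold change of members was -0.64, against 0.018 over all loci. It stayed below 0 without each library in turn, between -1.16 and -0.35. With library totals in place of TMM it was -0.030, where the median over all loci was 0.74.

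The 68 calls of DESeq2 fell on 50 members. The groups compared did not overlap in CPM at 7 of 12 calls in leaf against haustorium, 16 of 18 in leaf against stage 6 haustorium and 33 of 38 between the haustorium groups. Among all loci, called or not, the same groups did not overlap at 3.63%, 13.3% and 34.6%, and among all members at 3.75%, 14.7% and 37.8%. Calls were chosen for a difference between these same libraries, so their higher shares are built in. Some calls rested on few reads: between the haustorium groups, Cluster_6869 had 0.330 and 0.288 CPM at stage 6 against none. Cluster_15540, called in all 3 comparisons, had 43.5 CPM in stage 6 haustorium replicate 1 and no read in any other library. The median abundance of the called members was 7.28, 7.93 and 8.02 CPM in the 3 comparisons, against 6.96 CPM over all members. Members under the filter of edgeR made up 3, 2 and 3 of these calls.

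The members with the lowest edgeR p among those of at least 10 CPM show which patterns came closest to a call. Cluster_6864 had 58.0 and 5.76 CPM in leaf, and at most 4 reads in any haustorium library. Both leaf libraries were above all 4 others. Its log2 fold change in leaf against haustorium was 6.79 ± 1.52 (SE), with an unadjusted edgeR p of 0.00524, an adjusted p of 1.00 and a DESeq2 adjusted p of 0.0173.

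Cluster_8529 was the most abundant of these loci. It had 247 and 227 CPM in haustorium replicates 1 and 3, 271 and 353 CPM in stage 6 haustorium, and 89.1 and 14.2 CPM in leaf. The tissues did not overlap. Its log2 fold change was -2.97 ± 0.84 (SE), with an unadjusted edgeR p of 0.0140, an adjusted p of 1.00 and a DESeq2 adjusted p of 0.0159.

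Cluster_1253 had no read in either stage 6 haustorium library, against 96.6 and 110 CPM in haustorium without a stage and 27.8 and 81.9 CPM in leaf. With the mean limit of 3 reads per library in its place, the stage 6 level was at least 145-fold lower than in haustorium without a stage and at least 77.1-fold lower than in leaf. edgeR gave unadjusted p values of 0.00250 and 0.00314 (adjusted p 1.00 in both), and DESeq2 adjusted p values of 2.6e-06 and 4.6e-05. Cluster_1275 showed the reverse between the haustorium groups, with no read in haustorium without a stage, 54.4 and 58.5 CPM at stage 6, and 13.2 and 25.3 CPM in leaf. Its stage 6 level was at least 141-fold higher.

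Cluster_11970 was found almost wholly in haustorium without a stage, at 38.2 and 37.4 CPM, with 1 to 3 reads in each of the other 4 libraries. The log2 fold change of stage 6 haustorium against haustorium was -7.34 ± 1.08 (SE), with an unadjusted edgeR p of 0.000732, an adjusted p of 1.00 and a DESeq2 adjusted p of 1.1e-05. Cluster_10167 had 32.1 and 7.36 CPM in haustorium without a stage, 36.1 and 3.24 CPM in leaf, and at most 2 reads in stage 6 haustorium.

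Cluster_22512 and Cluster_8705 had their reads mainly in stage 6 haustorium. Cluster_22512 had 221 and 261 CPM there, 1.67 and 1.03 CPM in haustorium without a stage, and 8.98 and 1.44 CPM in leaf. Cluster_8705 had 236 and 279 CPM in stage 6 haustorium, 1.67 and 1.03 CPM in haustorium without a stage, and 0.544 and 1.92 CPM in leaf. The reads of both loci in haustorium without a stage were 14 and 7. The loci lie on different contigs, Cluster_22512 from 7026 to 7444 and Cluster_8705 from 1 to 255. Whether the same reads were counted at both was not tested, so they may not be independent loci. For Cluster_22512 the log2 fold change of stage 6 haustorium against haustorium was 6.91 ± 1.00 (SE), with an unadjusted edgeR p of 0.000650, an adjusted p of 1.00 and a DESeq2 adjusted p of 1.0e-09.

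**Figure D5:**
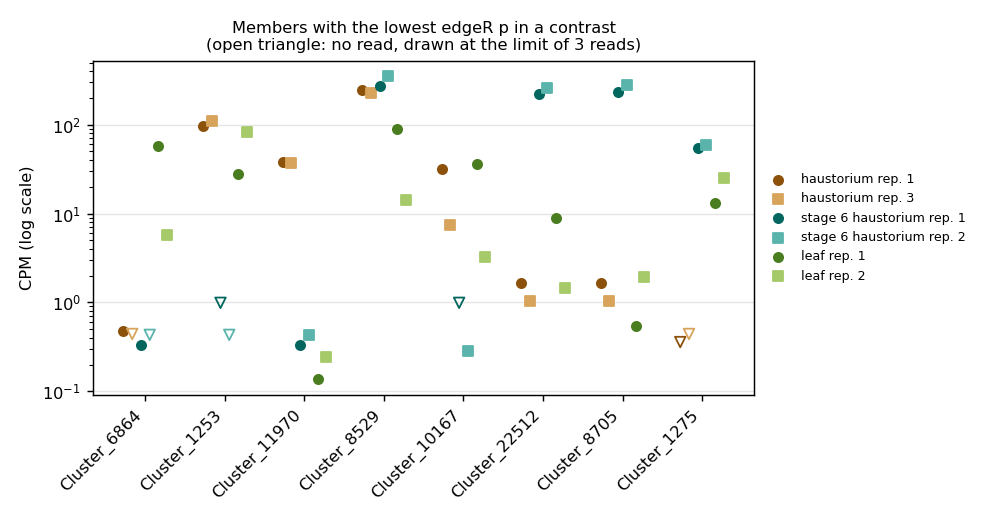
CPM (y axis, log scale) of the 8 members with the lowest edgeR p in a comparison (x axis), with 1 point per library; an open triangle marks a library without a read, drawn at the limit of 3 reads. Cluster_22512 and Cluster_8705 reach 221 to 279 CPM in stage 6 haustorium and stay below 9 CPM elsewhere, and Cluster_11970 is above 1 CPM in no group but haustorium without a stage.

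Among members of at least 10 CPM, those most alike to Cluster_11977 by Pearson's r of log2(CPM + 0.5) over the 6 libraries were Cluster_6880 (r = 0.982), Cluster_19264 (0.938), Cluster_11970 (0.920), Cluster_3902 (0.891) and Cluster_19199 (0.867). They were picked for this likeness, so the values are a description. Cluster_6880, which lies 156 nt from the gene SHERM_16748, had 53.0 and 77.6 CPM in haustorium without a stage, 20.8 and 18.1 CPM in stage 6 haustorium, and 19.7 and 7.56 CPM in leaf. Cluster_3902 had means of 212, 11.9 and 3.72 CPM in the same order of groups. All 5 were highest in both libraries of haustorium without a stage.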

How the data were processed

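Small RNA libraries of haustorium and leaf were trimmed by the authors, who called loci against the SHERM assembly with the defaults of ShortStack 4.0.4 and deposited, per library, raw counts of reads at each small RNA locus. The example command in the study sets no alignment option, and the sources used here do not state how reads with several positions were counted. The study describes no step that separates reads of the rice host, and none was made here. The total over the 25056 loci was taken as depth, and 0 count columns were left unmapped.

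CPM was computed on these totals. The quasi-likelihood test of edgeR 4.0.16 (R 4.3.3) compared the groups on loci kept by filterByExpr, with TMM scaling (Benjamini-Hochberg adjustment over all loci tested, threshold 0.05, 3 residual degrees of freedom, common coefficient of variation 1.00). The script was tested on simulated data, with the pass mark set at a spread below that of these data. Passing it does not show how many differences would be missed at the spread found here. Alternatives were DESeq2 1.42.0, other scalings, filters and limits, fits without each library, and a replicate block. Gene positions came from 29520 annotated genes of the same assembly. No genome sequence was used, so no locus sequence is shown. Tables were handled in pandas 2.3.3 and numpy 2.4.6 under Python 3.11.15, intervals in scipy 1.17.1, and figures in matplotlib 3.10.9.

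Members named are the 10 most abundant, the 3 longest and shortest, the 2 with the lowest edgeR p per comparison and direction, the 3 least and most variable, the 3 most abundant over genes, all members of the 3 contigs of several members with most reads, and the 5 most like the most abundant one. A mean of 10 CPM was required for the choices by p, spread or likeness. Members and rules were chosen with earlier results of these data known.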

Additional observations from a re-analysis of the deposited data

Results flagged for a closer look

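The 4 haustorium libraries were searched for a value far from the rest by Dixon's criterion, over both haustorium groups. The search covered each named member, the share of counted reads in members and the median CPM of members. Of 39 sets tested, 4 passed. Chance gives about 1 in 20, but some of these members were named for their spread, so the counts cannot be set against that rate. Cluster_2881 had 3167 CPM in haustorium replicate 3, above the other haustorium libraries. Cluster_5925 had 7.77 CPM in stage 6 haustorium replicate 2, and Cluster_21244 had 6.33 CPM in the same library, which has the highest TMM factor. Cluster_2957 had 185 CPM in haustorium replicate 1.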

How the results depend on the processing

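Precision was limited by reads: a member at the median had 8 reads in stage 6 haustorium replicate 1 and 104 in leaf replicate 1.

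In haustorium without a stage, stage 6 haustorium and leaf, the share of reads in members was 8.18%, 6.02% and 6.80% with 1 locus per contig. It was 8.57% in stage 6 haustorium with up to 3 loci. Without the most abundant member it was 9.15% and 7.55% in the haustorium groups. Without the 10 most abundant members, an alternative chosen after seeing the data, it was 3.82%, 3.65% and 4.34%. With the 10 most abundant loci outside the members, chosen with *MIRNA* loci included, taken out of the total it was 14.6% and 10.7% in the haustorium groups. Without a library the shares were 10.8% to 12.3%, 8.78% to 9.49% and 7.89% to 11.7%.

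Members with enough reads in every library were 636 at 5 reads, 259 at 20 reads and 262 with libraries thinned to the smallest total, and 440 to 593 without a library.

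DESeq2 called 12, 18 and 38 members in the 3 comparisons, and edgeR called 0 under every alternative run. Without a library the median log2 fold change of members ranged from -0.38 to 0.80 in leaf against haustorium, from -0.14 to 1.31 in leaf against stage 6 haustorium and from -1.16 to -0.35 between the haustorium groups. Without both libraries of high TMM factor, chosen after seeing the data, it was -0.24 in leaf against haustorium. With library totals it was -0.030 between the haustorium groups, and all loci had medians of 0.32, -0.10 and 0.74 in the 3 comparisons.

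Whether equal replicate numbers mark paired samples is not stated. Deviations of equal numbers at stage 6 correlated at -0.141 over 24421 loci. With a single difference between replicates per tissue, this cannot decide whether samples were paired. With the replicate block, which left 1 residual degree of freedom, edgeR called 0 members and the medians were 0.46, 0.50 and -0.41. The crossed pairing, chosen after seeing the data, also gave 0 calls in leaf against stage 6 haustorium.

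Of 22 fold changes of named members, 7 turned sign, and none of these was called by edgeR. In leaf against haustorium, library totals gave 0.045 for Cluster_22664 and 0.12 for Cluster_3877, and the replicate block gave 0.014 for Cluster_22664 and 1.64 for Cluster_21243. Without a library the range was -0.55 to 0.16 for Cluster_22664, -0.32 to 1.71 for Cluster_13164, -1.57 to 0.060 for Cluster_12758, -18.07 to 4.31 for Cluster_21243, -0.76 to 0.19 for Cluster_11975 and -1.11 to 0.40 for Cluster_10681. Without both libraries of high TMM factor it was 0.055 for Cluster_10681. The cause was not tested.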
